A study of Mus musculus with 8 samples.

Results

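tRNA-Asp-GTC, called Asp-GTC below, is the transfer RNA (tRNA) that reads aspartate codons with the anticodon GTC, and the tRNA-derived fragments (tRFs) of this 1 tRNA were followed in islet macrophages (iMACs) of diabetic mice. Every distinct sequence that the fragment table lists under Asp-GTC was taken, which gave 15 of 144 fragments and 888 of 18250 counts (4.87%). None of the 15 is listed under another tRNA name, and none occurs in another annotated mouse transcript. By their ends, 3 were 5'tRFs (168 counts), 9 were internal (532 counts) and 3 ended in the CCA of the mature 3' end (188 counts). Asp-GTC was chosen by its measured counts in db/db against wild-type libraries, so every difference between genotypes below is a description, and the calls printed beside it are not read as evidence.

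The db/db libraries came from male BKS.Cg-Dock7m+/+LeprdbJ mice, whose leptin receptor is mutated and which develop obesity and high blood glucose, and the wild-type libraries from BKS.Cg-Dock7m+/+ mice. Both groups were 8 weeks old and gave 4 libraries each. iMACs were sorted on the surface proteins CD11c, CD11b, F4/80 and CD45, and each library pooled islets of more than 1 mouse in a separate preparation. Messenger RNA was not measured in these libraries, so the identity of the sorted cells was not checked against marker genes here. The receptor mutation is in every cell, so an effect of the genotype within iMACs and an effect of the diabetic islet around them cannot be told apart. Nor can a difference in cutting and a difference in the amount of the parent tRNA, which was not measured.

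tRNAs are folded into arms that end in loops, with the anticodon in the middle loop, the D arm before it and the T arm after it. Ribonucleases cut them into fragments, and angiogenin, a ribonuclease of stressed cells, cuts in the anticodon loop. Asp tRNA is among the few tRNAs with the modified base queuosine in the anticodon, and its anticodon loop is methylated by DNMT2, a methylation known in flies and mice to protect the tRNA from cleavage. The RefSeq annotation of GRCm38.p6 holds 16 Asp-GTC genes of 72 bases each, 5 of them on chromosome 1, and a fragment cannot be placed at 1 of them. n-TDgtc1, for example, lies at chr5:100992874-100992945.

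Of the 15 fragments, 14 joined into the stretches below, written 5' to 3' in the letters of the files and numbered from 1 at the mature 5' end, with the anticodon at positions 34 to 36 in capitals. They show where the listed fragments lie: none crosses the boundary between positions 30 and 31. The fragment that ends at position 30 is also of the longest length in the table, 30 nt, so its end is not read as a cut site. The gene length of 72 plus the CCA of 3 gives 75 positions, which leaves 0 bases between the stretches.
Positions 1 to 30: tcctcgttagtatagtggtgagtatccccg
Positions 31 to 75: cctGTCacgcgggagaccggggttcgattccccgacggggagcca

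The next fragments carry the differences described here. The first is the shortest 5'tRF, the next starts with the base after the anticodon, and the 20-nt and 23-nt fragments both start at position 31 and hold the whole anticodon, in capitals. The 29-nt fragment is the most abundant one with the CCA end.
26-nt 1-26: tcctcgttagtatagtggtgagtatc
30-nt 37-66: acgcgggagaccggggttcgattccccgac
20-nt 31-50: cctGTCacgcgggagaccgg
23-nt 31-53: cctGTCacgcgggagaccggggt
29-nt 47-75: ccggggttcgattccccgacggggagcca

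The 17-nt fragment gtagtatagtggttagt fits positions 7 to 23 of the D arm with the substitutions T7G and G20T, where the first letter is that of the stretch above. Since the study kept perfect matches, its listing under Asp-GTC would place it in a copy of another sequence. That copy was not looked up here. The other 14 fragments matched the stretches without a difference.

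Fragment totals of the table, which set the precision of every share below, were 1710 to 2521 counts in db/db libraries and 1477 to 4567 counts in wild-type libraries. They count only listed fragments and are not the sequencing depth. db/db replicate 1 and wild-type replicates 3 and 4 stood apart from the rest: 16 5'tRFs of Ser-GCT, Leu-TAG and Cys-GCA took 27.1% of the counts in db/db replicate 1, and 37.6% and 31.8% in wild-type replicates 3 and 4, against 1.56% to 2.81% in the other 5 libraries. Values without these 3 libraries are given where a result rests on them.

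All Asp-GTC fragments together made up 6.86% ± 2.25 of the listed counts in db/db iMACs and 3.73% ± 1.22 in wild-type iMACs (SD, n = 4 each). By library the shares were 4.88%, 5.01%, 9.29% and 8.25% in db/db replicates 1 to 4, and 5.32%, 4.06%, 2.72% and 2.84% in wild-type replicates 1 to 4. The groups overlap, since 2 of 4 db/db libraries lay above every wild-type library. The difference of the means was 3.12 percentage points, and 2.83 without db/db replicate 1 and wild-type replicates 3 and 4. With the 5'tRFs of Ser-GCT, Leu-TAG and Cys-GCA taken out of the totals it was 2.92. Without the 5'tRFs and the 37-66 fragment, the remaining 11 fragments held 3.87% ± 0.856 in db/db iMACs and 3.39% ± 1.19 in wild-type iMACs, a difference smaller than either SD.

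**Figure D1:**
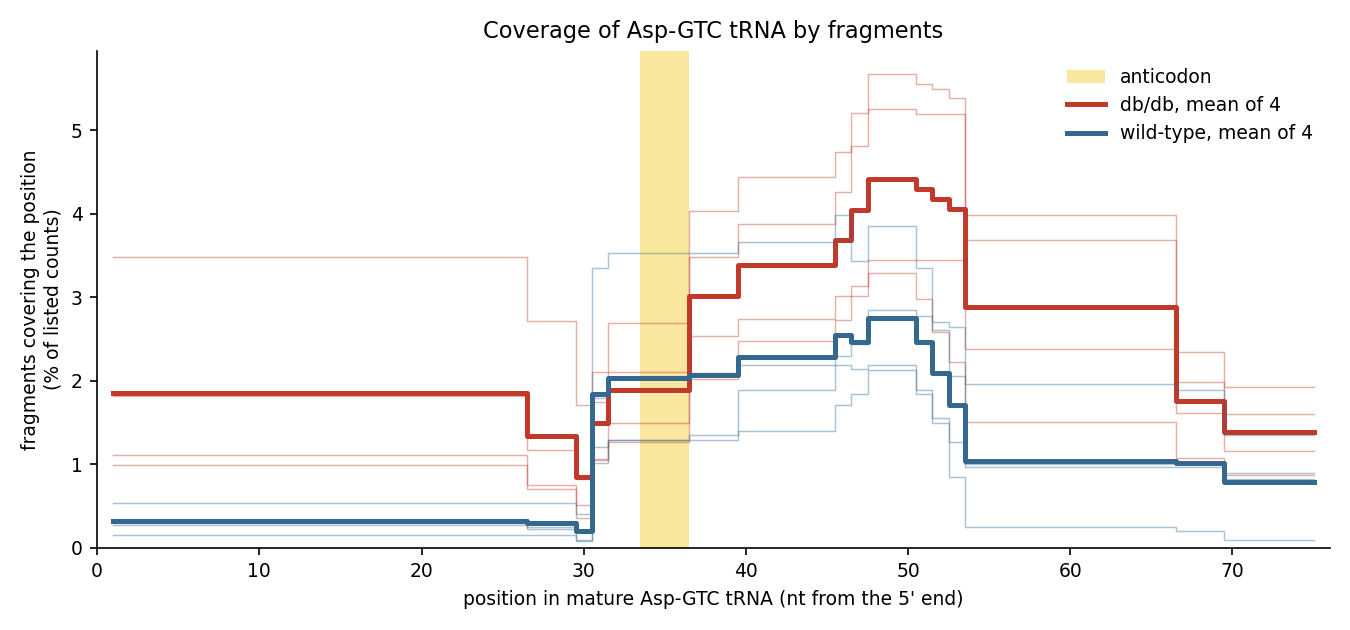
Share of the listed counts (%) whose fragment covers each position of Asp-GTC tRNA (nt from the mature 5' end). Thick lines are the means of 4 db/db and 4 wild-type libraries, thin lines single libraries and the yellow band the anticodon; the 17-nt fragment with substitutions is left out. At position 20 the means are 1.85% in db/db and 0.317% in wild-type, at position 33 they are 1.89% and 2.04%, and at position 60 they are 2.89% and 1.05%.

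Coverage along the tRNA stepped at fixed positions, and its difference between genotypes was uneven. Over the 5' part, at position 20, coverage was 1.85% ± 1.15 of the listed counts in db/db and 0.317% ± 0.163 in wild-type iMACs. Just before the anticodon, at position 33, the order was reversed and the means lay within 1 SD of each other, with 1.89% ± 0.641 in db/db and 2.04% ± 1.06 in wild-type iMACs. In the T arm, at position 60, coverage was 2.89% ± 1.15 in db/db and 1.05% ± 0.704 in wild-type iMACs, and at position 70 near the 3' end it was 1.39% ± 0.468 and 0.794% ± 0.519. The base just 3' of the 30/31 boundary began 5 of the 15 fragments (299 counts), and 1 more began a base later (48 counts).

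The 5'tRFs were the region with the clearest gap. Together they held 0.992%, 1.11%, 3.48% and 1.81% of the listed counts in db/db replicates 1 to 4, and 0.275%, 0.542%, 0.153% and 0.299% in wild-type replicates 1 to 4. Every db/db library lay above every wild-type library, and db/db replicate 3 was far above the other db/db libraries. How many sums of other tRNAs separate in this way was not counted. The difference of the mean shares was 1.53 percentage points, and 1.73 without db/db replicate 1 and wild-type replicates 3 and 4. The summed 5' counts had a log2 fold change of 2.35 ± 0.52 (SE) and an adjusted p of 0.0564 in edgeR's quasi-likelihood test across 46 sums by tRNA and region, of which 3 (6.52%) were called. This sum was chosen for that contrast, so the call is printed only as a description. It was lost without wild-type replicate 1 (adjusted p = 0.182), wild-type replicate 3 (0.249), db/db replicate 3 (0.119) or db/db replicate 4 (0.113), all in the same edgeR fit.

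The 26-nt 5'tRF, which ends 4 bases before the longest one, was the scarcest of the 3 in wild-type iMACs. It had 6, 8, 14 and 11 counts in db/db replicates 1 to 4, against 1, 0, 0 and 1 in wild-type replicates 1 to 4. The 29-nt form had 6, 7, 18 and 6 counts in db/db libraries and 3, 2, 3 and 1 in wild-type libraries. For both lengths the lowest db/db share was above the highest wild-type share, as was so for 9 of 144 fragments in the table (6.25%). The 30-nt form, which runs up to the 30/31 boundary, had 13, 7, 31 and 14 counts in db/db libraries against 2, 6, 4 and 4 in wild-type libraries. Its groups overlapped by share, since db/db replicate 2 (0.354%) was below wild-type replicate 2 (0.406%). The log2 fold changes were 4.46 ± 0.91 for the 26-nt, 2.53 ± 0.68 for the 29-nt and 2.41 ± 0.72 for the 30-nt form (SE). Pooled over libraries, the ratio of shares of the 26-nt form was 24.9, with an exact 95% interval for counting error of 6.45 to 213. That of the 30-nt form was 5.19 (2.97 to 9.61). The interval of the 26-nt form rests on 2 wild-type counts and overlaps that of the 30-nt form, and whether the lengths differ in their genotype difference was not tested.

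The most abundant Asp-GTC fragment in db/db iMACs was not a 5'tRF. It was the 30-nt fragment from position 37 to 66, which starts with the base after the anticodon. As listed it ends past the T loop and before the CCA. Since 30 nt is the longest listed length, that end is not read as a cut site. Whether the molecule ran on to the CCA was not tested, so its place among the internal fragments holds for the listed sequence only. It had 11, 15, 36 and 23 counts in db/db replicates 1 to 4. Wild-type replicates 1 to 4 had 0, 1, 0 and 1 counts. A count of 0 allows a share of up to 0.137% in wild-type replicate 1 and 0.0657% in wild-type replicate 3, while the db/db shares were 0.436%, 0.759%, 1.99% and 1.35%. The groups do not overlap, and db/db replicate 1, the lowest of its group, is also the db/db library that stood apart. The pooled ratio of shares was 54.3 (exact 95% interval 14.6 to 455, counting error only), from 85 and 2 counts. Its log2 fold change was 5.56 ± 0.97 (SE) with an adjusted p of 0.0158 in edgeR. This p lay between 1.1e-04 and 0.0693 over the alternatives that tested it, and a filter on low counts left the fragment out. Since this contrast led to the choice of the tRNA, these p values are printed only as a description. Among the 58 internal fragments of other tRNAs, 0 were called in either direction by edgeR, 0 had an unadjusted p below 0.05, and 0 were called by DESeq2. By length the setting differs. Of the 5 fragments of 30 nt from other tRNAs, 1 was called higher by edgeR and 2 by DESeq2. An unadjusted p below 0.05 in edgeR was found for 4 of them.

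In all, 4 of the 15 Asp-GTC fragments were called higher in db/db iMACs (the 3 5'tRFs and 37-66), by a threshold of 0.1 on the adjusted p together with more than a 2-fold change. Of all 144 listed fragments 11 (7.64%) were called, and all 11 were higher in db/db. None of the 15 was called lower by edgeR or DESeq2, and 0 of them were lower at an unadjusted p below 0.05. Since these libraries and this contrast chose the tRNA, nothing is read from the count. The count was 1 if db/db replicate 3 or 4 was left out, and 2 if db/db replicate 2 or wild-type replicate 1, 3 or 4 was. Over the Asp-GTC fragments log2 fold changes had a median of 1.002, and over all 144 fragments one of -0.11. With library totals in place of TMM scaling these medians were 0.75 and -0.32, so fold changes here are to be read against that shift of all fragments.

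**Figure D2:**
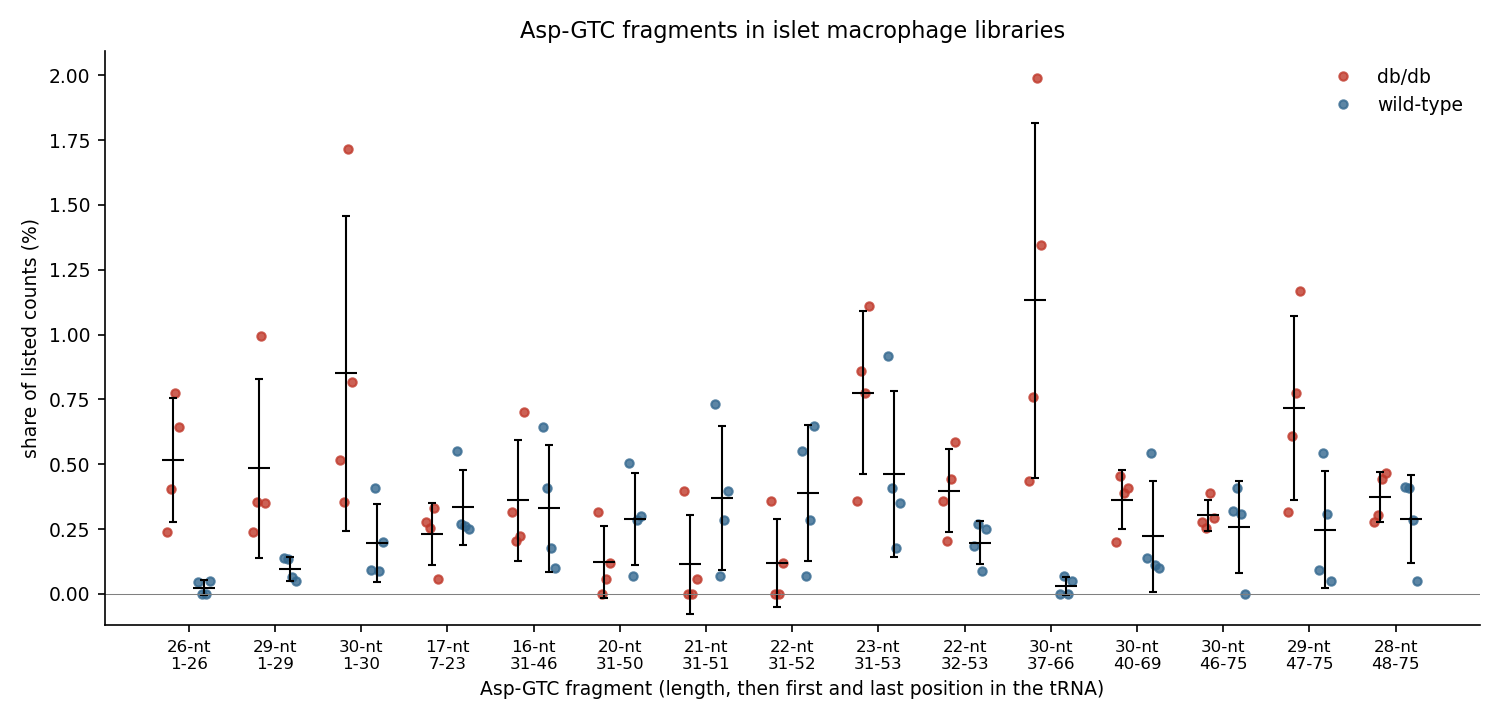
Share of the listed counts (%) of each of the 15 Asp-GTC fragments, named by length and by first and last position, with db/db libraries left of wild-type libraries. Points are the 4 libraries of each genotype and bars the mean ± SD. The 37-66 fragment reaches 1.99% in db/db and at most 0.0677% in wild-type, while the 3 lengths from 20 to 22 nt that start at position 31 have lower means in db/db.

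The 6 fragments that start at position 31 or 32 span the anticodon and end between positions 46 and 53. The form that ends at position 46 stops before the T arm, and the others end within its 5' side. Together they held 1.89% ± 0.641 of the listed counts in db/db and 2.04% ± 1.06 in wild-type iMACs. Within this family the lengths differed in their pattern over libraries. The 23-nt form, the most abundant Asp-GTC fragment over all libraries with 100 counts, was in every library, with 9, 17, 14 and 19 counts in db/db and 20, 6, 8 and 7 in wild-type iMACs. The 22-nt form from position 32, which shares its 3' end at position 53, had 9, 4, 8 and 10 counts in db/db and 4, 4, 4 and 5 in wild-type iMACs. Neither was called, with log2 fold changes of 1.04 ± 0.57 and 1.24 ± 0.60 (SE).

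The forms that end 1 to 3 bases earlier were near absent from several libraries that held the 23-nt form. The 20-nt form had 8, 0, 1 and 2 counts in db/db replicates 1 to 4 and 11, 1, 13 and 6 in wild-type replicates 1 to 4. The 21-nt form had 10, 0, 0 and 1 counts in db/db and 16, 1, 13 and 8 in wild-type iMACs. The 22-nt form from position 31 had 9, 0, 0 and 2 counts in db/db and 12, 1, 13 and 13 in wild-type iMACs. The 3 lengths were thus high together in db/db replicate 1 and wild-type replicates 1, 3 and 4, and low together in db/db replicates 2, 3 and 4 and wild-type replicate 2. As a share of the listed counts they summed to 0.355% ± 0.494 in db/db and 1.05% ± 0.680 in wild-type iMACs, with overlapping groups. The 3 high libraries db/db replicate 1 and wild-type replicates 3 and 4 are also those with many 5'tRFs of Ser-GCT, Leu-TAG and Cys-GCA, while wild-type replicate 1, with 1.56% of those 5'tRFs, is not. The part of this library difference in the pattern was not tested. The log2 fold changes were -1.05 ± 0.97, -1.45 ± 1.06 and -1.52 ± 1.03 (SE) for 20, 21 and 22 nt, and none was called. Without db/db replicate 1 that of the 21-nt form was -3.78, with an adjusted p of 0.0791 in edgeR.

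The shortest form from position 31, of 16 nt, had 8, 4, 4 and 12 counts in db/db and 14, 6, 8 and 2 in wild-type iMACs, with no order between the groups. The summed internal counts, with a log2 fold change of 0.21 ± 0.40 (SE), joined the 37-66 fragment, which was higher in db/db, with these families. Without 37-66 the internal fragments held 2.48% ± 0.515 in db/db and 2.59% ± 1.12 in wild-type iMACs.

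**Figure D3:**
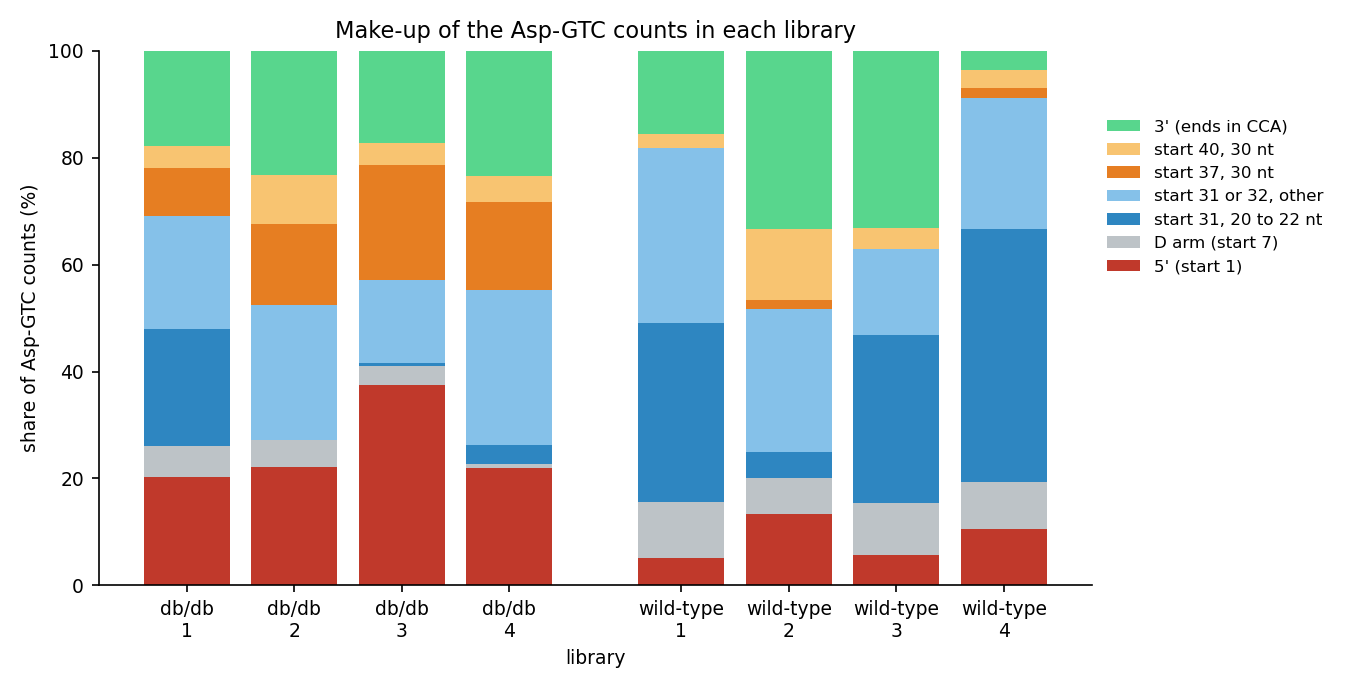
Share of the Asp-GTC counts (%) held by each fragment family in each library, with the 4 db/db libraries left of the 4 wild-type libraries and families stacked from the 5' end at the bottom to the CCA end at the top. The 5'tRFs take 20.3% to 37.5% of the bar in db/db and 5.17% to 13.3% in wild-type libraries, and the 20-nt to 22-nt forms from position 31 take 0% to 21.95% in db/db and 5% to 47.4% in wild-type libraries.

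The makeup of the Asp-GTC counts themselves does not depend on the totals of other tRNAs. Of these counts, 5'tRFs were 20.3%, 22.2%, 37.5% and 21.99% in db/db replicates 1 to 4 and 5.17%, 13.3%, 5.65% and 10.5% in wild-type replicates 1 to 4. The 95% Wilson interval of the lowest db/db library (14.2% to 28.3%) overlapped that of the highest wild-type library (6.91% to 24.2%), although no library value of one group reached the other group. How often the makeup of other tRNAs separates in this way was not counted. The 37-66 fragment was 8.94% to 21.4% of the Asp-GTC counts in db/db libraries and at most 1.75% in wild-type libraries. The 3' fragments took similar mean shares, 20.4% ± 3.33 in db/db and 21.4% ± 14.5 in wild-type iMACs, but varied more between the wild-type libraries (3.51% to 33.3%).

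The remaining long fragments from the 3' side had weaker differences. The 30-nt fragment from position 40 to 69 had 5, 9, 7 and 7 counts in db/db and 3, 8, 5 and 2 in wild-type iMACs. Fragments with the CCA end are the kind that a cut in or before the T loop leaves on the 3' side. Of these the 29-nt form had 8, 12, 14 and 20 counts in db/db and 2, 8, 14 and 1 in wild-type iMACs, with a log2 fold change of 1.72 ± 0.72 (SE) and an adjusted p of 0.249 in edgeR. The 28-nt form, which starts a base later, had 7, 6, 8 and 8 counts in db/db and 9, 6, 13 and 1 in wild-type iMACs. The 30-nt form, which starts a base earlier, had 7, 5, 7 and 5 counts in db/db and 7, 6, 14 and 0 in wild-type iMACs. All 3 had their lowest count in wild-type replicate 4, and their groups overlapped. The sum of the CCA-ending fragments had a log2 fold change of 0.62 ± 0.57 (SE) and was not called. The 17-nt D-arm fragment with substitutions had 7, 5, 6 and 1 counts in db/db and 12, 4, 12 and 5 in wild-type iMACs. Its log2 fold change was -0.34 ± 0.60 (SE).

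Asp-GTC fragments were then compared with those of all other tRNAs within each library, a comparison across tRNAs rather than between genotypes. By counts, Asp-GTC fragments were longer than the pool of all others. Single tRNAs were not compared, and length is not particular to Asp-GTC. The 30-nt 5'tRF of Gly-CCC had 324 counts, and the 28-nt 5'tRF of Val-AAC and Val-CAC had 191. In fragments of 28 nt or more lay 46.3%, 61.6%, 72.0% and 58.9% of the Asp-GTC counts in db/db replicates 1 to 4 and 22.4%, 61.7%, 42.7% and 17.5% in wild-type replicates 1 to 4. For the 129 other fragments this share was 5.12% to 23.4%. Averaged over the 8 libraries it was 47.9% ± 19.6 for Asp-GTC and 11.9% ± 7.37 for the other tRNAs (SD), and it was higher for Asp-GTC in 8 of 8 libraries (two-sided exact permutation test by sign flips, p = 0.0078, adjusted p = 0.0078 over 3 comparisons, the smallest that 8 libraries allow). The mean length by counts was 25.0 ± 1.93 nt for Asp-GTC and 19.7 ± 1.14 nt for the other tRNAs, again higher in 8 of 8 libraries with the same exact p. These tests, and that of the 5' share below, take libraries as units and the listed sequences as fixed. Differences of the same sign in all 8 libraries give this p whatever their size, so it is read only as that agreement. The tests do not show whether Asp-GTC is unusual among single tRNAs, which was not tested. The Asp-GTC set also includes 37-66, with 85 counts in db/db and 2 in wild-type libraries.

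In contrast, a smaller part of the Asp-GTC counts than of the others came from the 5' end. 5'tRFs made up 17.1% ± 10.7 of the Asp-GTC counts and 45.7% ± 13.9 of the counts of other tRNAs, and the Asp-GTC share was lower in 8 of 8 libraries (exact permutation p = 0.0078). Without the abundant proline fragments among the others, the difference of -28.6 percentage points was -43.6. The gap was least in db/db replicate 3, with 37.5% for Asp-GTC and 47.3% for the others. The table holds no fragment above 30 nt, and 4 of its 9 fragments of 30 nt are from Asp-GTC. Whether some entries of 30 nt are the first bases of longer molecules was not tested. With all fragments of 30 nt left out, an alternative added after the values were seen, the differences had the same sign, with 22.8 percentage points for the share of 28 nt or more, 4.06 nt for the length and -28.9 percentage points for the 5' share.

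**Figure D4:**
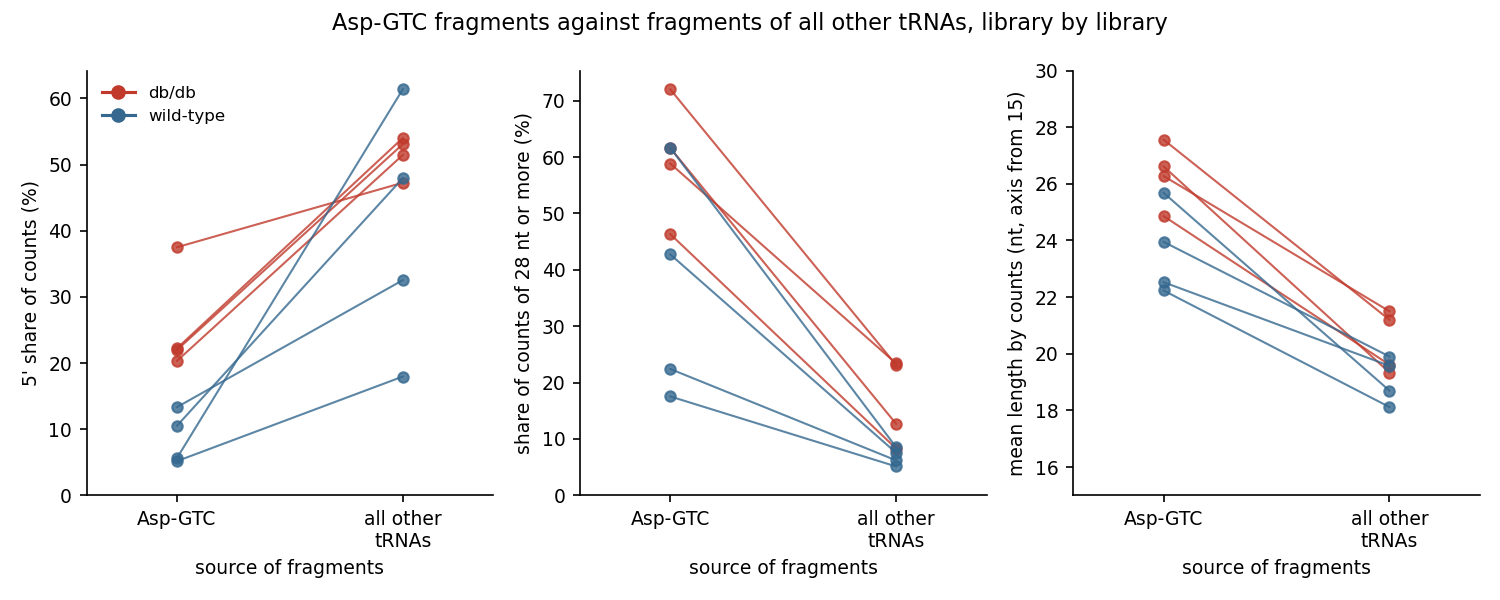
Asp-GTC fragments (left) joined by a line to the fragments of all other tRNAs (right) in each of 4 db/db and 4 wild-type libraries. Panels show the 5' share of counts (%), the share of counts in fragments of 28 nt or more (%) and the mean fragment length by counts (nt, axis from 15). All 8 lines go up in the first panel and down in the other panels.

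Long 5'tRFs of other tRNAs give the setting for those of Asp-GTC. Of 11 such fragments of 28 nt or more, 2 were called higher and 0 lower in db/db iMACs by edgeR, 9 had a positive log2 fold change, and their median was 1.57. The count of 2 was 4 under DESeq2, 6 without the 3 libraries that stood apart, 5 without db/db replicate 1, 1 without wild-type replicate 2, and 0 without any other single library. The 28-nt 5'tRF of the valine tRNAs Val-AAC and Val-CAC had 23, 28, 46 and 43 counts in db/db and 7, 11, 25 and 8 in wild-type iMACs, with a log2 fold change of 2.06 ± 0.66 (SE). The 30-nt 5'tRF of Gly-CCC, a glycine tRNA, had 7, 35, 69 and 64 counts in db/db and 37, 22, 64 and 26 in wild-type iMACs, with overlapping groups and a log2 fold change of 0.95 ± 0.77 (SE). All 5 other fragments of 30 nt had a positive log2 fold change, with a median of 1.80, which was 1.46 with library totals.

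Across the 8 libraries, the sums most like the Asp-GTC 5' sum among 45 others were again 5' sums. Pearson's r of log2(CPM + 1000), where CPM is the listed count rescaled by edgeR to a common TMM-adjusted library size, was 0.91 for the 5'tRFs of Gly-GCC, 0.90 for Val-AAC and Val-CAC, 0.86 for Lys-TTT and 0.82 for Val-TAC. The internal and 3' sums of Asp-GTC itself had 0.65 and 0.58. Among single Asp-GTC fragments, 37-66 had an r of 0.97 with the 5' sum and -0.74 with the 21-nt form from position 31. Both 37-66 and the 5' sum were higher in every db/db library than in any wild-type library, so the difference between genotypes enters their r. Whether they vary together within a genotype was not tested. All these correlations describe 8 libraries of 2 genotypes that share their totals.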

How the data were processed

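Small RNA libraries of 8 sorted iMAC preparations were analysed, 4 per genotype. Per the methods of the study, the authors made libraries with a kit that tags each molecule, collapsed reads by tag, aligned them to GRCm38.p6 (the build in the submitters' processing notes) and mapped them with bowtie to mature tRNAs, keeping perfect matches. The deposited counts are therefore molecules per fragment. The deposited log2 values of the same counts were not used. Perfect matching can lose fragments with modified bases, so levels of different fragments or tRNAs are not directly comparable.

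The table's 242 entries were collapsed to 144 sequences, since 58 stood under more than 1 tRNA name. A fragment ending in CCA was called 3', one starting within 1 nt of the mature 5' end 5', and the rest internal. Mature sequences were assembled from the fragments. A share is a count over the listed counts of its library, 1477 to 4567. Intervals and limits cover counting error only.

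Genotypes were compared with edgeR 4.0.16 (quasi-likelihood test, TMM, genotype as the only term, no filter) in R 4.3.3, with Benjamini-Hochberg adjustment over all 144 fragments or 46 sums; each fold change is that of db/db relative to wild-type. Each SE of an edgeR fold change was computed as the size of that fold change over the square root of the test's F. A filter on low counts (filterByExpr, minimum 10) kept 1 of the 15 members, the 23-nt form, so it was an alternative. DESeq2 1.42.0, library totals, a term for library number and left-out libraries were others. The SE that DESeq2 fitted was larger for every Asp-GTC fragment, such as 1.21 for the 26-nt 5'tRF and 1.22 for 37-66. The term for library number set libraries numbered 17 to 20 against those numbered 21 to 24. Comparisons with other tRNAs used exact sign-flip permutation tests over libraries. The replicates are the labels' separate samples.

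Every Asp-GTC fragment is described. Outside it, the text names the sums most like the Asp-GTC 5' sum and up to 5 other long 5'tRFs by count. The 5' fragments of 1 further tRNA entered all tests and are not reported by name. Members and lists were chosen with earlier results of these data known.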

Additional observations from a re-analysis of the deposited data

Results flagged for a closer look

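Among 56 sets of 4 libraries, 5 held a library whose gap to the nearest of the others, over the range of the set, was above Dixon's 95% critical value for a group of 4. Chance alone gives about 1 such set in 20. The 29-nt 5'tRF of Asp-GTC was at 0.996% of the listed counts in db/db replicate 3, far above the other db/db libraries (0.238% to 0.354%). The same library had the smallest difference between the 5' share of Asp-GTC and that of other tRNAs, at -9.76 percentage points, while the other db/db libraries lay between -31.8 and -31.1. The 21-nt fragment from position 31 was at 0.397% in db/db replicate 1 and at 0 to 0.0585% in the other db/db libraries. In wild-type iMACs the 17-nt D-arm fragment stood at 0.550% in replicate 1, and the 30-nt fragment from position 40 stood at 0.542% in replicate 2.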

How the results depend on the processing

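The 3 comparisons with other tRNAs kept their direction under every alternative run. With db/db libraries alone the differences were -25.9 percentage points for the 5' share, 42.8 for the share of 28 nt or more and 5.92 nt for the mean length, with wild-type libraries alone -31.3, 29.2 and 4.53, where 4 libraries allow no p below 0.125. Without db/db replicate 1 and wild-type replicates 3 and 4 they were -20.9, 40.5 and 5.90, with an adjusted p of 0.0625 by the exact permutation test. Leaving out 1 library at a time gave -31.3 to -24.7, 33.6 to 39.4 and 4.93 to 5.54.

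Calls between genotypes were less stable. The 4 Asp-GTC fragments called higher became 2 with library totals alone and 2 with a term for library number, 0 with filterByExpr (which kept 1 member), 5 without the 3 libraries that stood apart, and 1 to 5 when 1 library was left out. Those called lower were 0 to 1 then, and 1 without the 3 libraries. Of the sums, 1 was called higher, 0 with the term for library number, and 0 to 1 when 1 library was left out. The 2 called among other long 5'tRFs became 1 with library totals alone, 1 with the term for library number, 4 with DESeq2, 6 without the 3 libraries and 0 to 5 when 1 library was left out. The log2 fold change of the internal sum ran from 0.12 to 0.71 then. In all, 355 of 400 values under alternatives for 32 results kept their call or stayed near their value. Part of these could not change. No Asp-GTC fragment is listed under another tRNA name, so keeping only such fragments returned the main values. The tally is therefore not read as a measure of stability. A fold change counted as near if it moved by less than its pooled SD, even where its call was lost. For an uncalled fold change the sign could also change. That of the 16-nt form from position 31 went from 0.44 to -0.17 without db/db replicate 4. No fold change called in the main fit changed its sign. No paired analysis was possible because the labels give no replicate numbers shared between genotypes. With under 100 counts for most fragments, counting error limits every single-fragment value.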
